A study of Mus musculus with 4 samples.

Results

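The sarcomere scaffold and Z-disc genes described here are 10 genes, Ttn, Neb, Actn2, Actn3, Ldb3, Tcap, Myom1, Mybpc1, Des and Ckm, measured in MuSCs (muscle stem cells, the Pax7-expressing cells that lie on the surface of myofibers). They were taken by gene name from a table of 19353 genes, in which each name was found in 1 row, and all 10 were among the 7228 genes with enough counts to be tested. The cells came from Pax7-CreERT2:Rosa-YFP mice that had received tamoxifen, so that Cre acted in cells expressing Pax7 at that time and left a permanent yellow fluorescent protein (YFP) label in these cells and in their descendants. All 4 libraries share this genotype and treatment, and the age of the mice is not given in the sources used here. In the overloaded group, plantaris had to carry the work of gastrocnemius and soleus, whose tendons had been severed near the heel (tenotomy), and in the sham group only the skin was opened. YFP-labeled cells were sorted in tubes of 100 cells at 4 days after surgery, and RNA was sequenced by CEL-Seq2, which sequences transcripts from their poly(A) end and tags every captured molecule with a unique molecular identifier (UMI). Sham replicates 1 and 2 held 269683 and 260488 UMIs, and overloaded replicates 1 and 2 held 387955 and 483528 UMIs, or 2697, 2605, 3880 and 4835 UMIs per cell. The sources do not say if separate mice gave the 2 libraries of each group, so that the p-values measure the spread between these libraries, which may be partly technical.

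The sarcomere is the repeating contractile unit of striated muscle, bounded at both ends by Z-discs and centered on the M-band. At the Z-disc, alpha-actinin crosslinks thin filaments from neighboring sarcomeres, and titin runs from there to the M-band as a molecular spring. Nebulin lies along the thin filament in skeletal muscle, desmin ties Z-discs of adjacent myofibrils together, and myomesin and myosin-binding protein C hold the thick filaments. Quiescent MuSCs contain no sarcomeres, and these genes are commonly switched on when myoblasts leave the cell cycle, differentiate and fuse, under the control of the MyoD family (including myogenin), MEF2 and serum response factor, whose DNA motifs are the E-box, the MEF2 site and the CArG box.

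The promoters of Ttn, Ldb3, Myom1 and Des are shown because the first 3 carry the MEF2 and CArG matches among the members, and because Ttn and Ldb3 rose while Myom1 and Des, the most abundant member, did not pass the test. RefSeq windows on GRCm38.p6, from 250 bases before to 50 bases after the start site, were at hand for 7 of the 10 members (8 windows, Ldb3 having 2), and the 250 bases before the start are printed, 5′ to 3′ on the strand of the gene. The Ttn promoter is chr2:76982548-76982797 on the minus strand, that of Ldb3 is chr14:34588682-34588931 on the minus strand, that of Myom1 is chr17:71019307-71019556 on the plus strand and that of Des is chr1:75360042-75360291 on the plus strand. Capitals mark matches to the E-box CANNTG, the MEF2 site and the CArG box, searched on both strands.
Ttn: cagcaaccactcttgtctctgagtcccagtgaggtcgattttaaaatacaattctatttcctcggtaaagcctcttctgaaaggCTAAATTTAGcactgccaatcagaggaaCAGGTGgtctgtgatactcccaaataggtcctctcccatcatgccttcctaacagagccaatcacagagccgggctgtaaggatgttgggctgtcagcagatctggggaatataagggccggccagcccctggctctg
Ldb3: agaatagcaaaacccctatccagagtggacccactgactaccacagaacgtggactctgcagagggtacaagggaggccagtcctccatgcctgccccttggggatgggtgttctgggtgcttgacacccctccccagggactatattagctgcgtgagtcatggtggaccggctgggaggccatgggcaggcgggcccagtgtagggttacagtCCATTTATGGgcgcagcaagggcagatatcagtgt
Myom1: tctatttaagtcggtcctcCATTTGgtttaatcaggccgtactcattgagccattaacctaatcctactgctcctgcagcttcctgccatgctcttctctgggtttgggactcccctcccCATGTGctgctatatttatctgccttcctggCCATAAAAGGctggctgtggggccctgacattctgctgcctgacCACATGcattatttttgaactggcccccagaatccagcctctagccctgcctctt
Des: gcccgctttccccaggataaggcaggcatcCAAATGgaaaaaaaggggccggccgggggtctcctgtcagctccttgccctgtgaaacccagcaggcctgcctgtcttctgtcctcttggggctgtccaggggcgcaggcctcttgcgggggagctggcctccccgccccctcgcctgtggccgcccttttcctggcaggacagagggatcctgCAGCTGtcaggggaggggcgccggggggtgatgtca

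In the Ttn promoter the MEF2 match CTAAATTTAG began 166 bases before the start, and an E-box lay nearby at 138 bases before it. The CArG match CCATTTATGG of Ldb3 began 35 bases before the start and was also in the other Ldb3 window, and Myom1 held CCATAAAAGG 99 bases before its start. The CArG box was thus found in the windows of 2 of the 7 genes, with the overlapping windows of Ldb3 holding the same site, and 1.63% of 32851 promoters of the same length hold it. The MEF2 site was in the window of 1 of the 7 genes and in 3.19% of all promoters. E-boxes are frequent in any such window: 6 of the 8 held CANNTG (Ttn, Myom1, Des, Ckm, Mybpc1 and Actn2), against 72.3% of all promoters. CAGCTG, which is itself a CANNTG, was in those of Des, Ckm and Mybpc1, against 16.3% of all promoters. A match to TATAAA was in none of the 8 windows and in 13.6% of all. The promoters of members that rose and of members that did not both held such matches, and a match describes only the letters of the window.

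Overloaded MuSCs contained more transcript of most of these genes. The largest changes were those of the giant proteins, with Neb 10.6-fold and Ttn 7.55-fold higher than in sham MuSCs, followed by the Z-disc genes Ldb3 (5.70-fold) and Actn2 (3.85-fold). Ckm, Actn3 and Tcap rose less than 2-fold, and Myom1, Mybpc1 and Des did not pass the test. With edgeR's quasi-likelihood test and a Benjamini-Hochberg adjusted p under 0.1, 7 of the 10 members were higher, 0 were lower and 3 did not pass. Among all 7228 genes tested, 52.1% passed in either direction, 25.8% were higher and 26.3% were lower, so that a call in itself is common in these libraries. On the log2 scale, the middle of the 10 members' fold changes was 0.88 (median) and that of all genes was 0.051, for which the 10th and 90th percentiles were -1.18 and 1.54. The median of the members was 1.55 without sham replicate 1 and 0.63 without sham replicate 2. Actn2, with 2 and 2 UMIs in sham, had enough counts to be tested only through the overloaded libraries. Neb, Ldb3, Tcap and Myom1, with 4, 1, 3 and 7 UMIs in sham replicate 2, needed overloaded counts too. The tally and the median of the members can therefore lean toward genes that rose. Groups did not overlap for 8 of 10 members, against 72.9% of all genes tested. Because each library pools 100 cells, a larger number of cells with these transcripts and more transcripts in each cell cannot be told apart. DESeq2 called 4 of the 10 members higher (Ttn, Neb, Ckm and Actn3), and leaving out a library in turn gave 5 to 7.

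**Figure D1:**
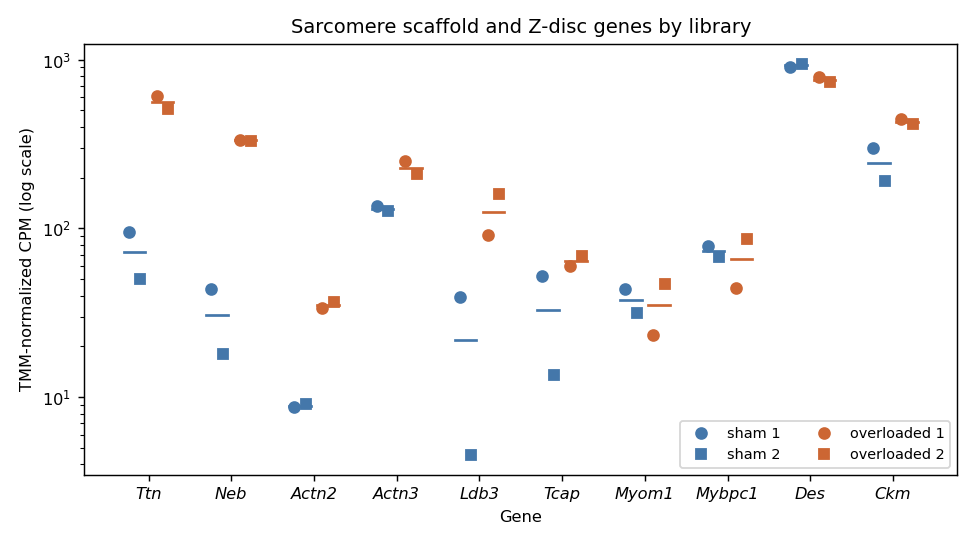
Level of each of the 10 genes in CPM (UMIs scaled to a common library total, log scale) in sham and overloaded MuSCs, 1 point per library and a bar at the mean of 2 libraries per group. Ttn goes from 95.8 and 49.8 to 608 and 506 CPM and Neb from 43.5 and 18.1 to 335 and 330, whereas the groups of Myom1 and Mybpc1 overlap and those of Des lie close together.

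Ttn (ENSMUSG00000051747, chr2:76703980-76982547 on GRCm38, minus strand) encodes titin, and its longest annotated transcript has 347 exons. It was counted as 22 and 11 UMIs in sham replicates 1 and 2 and as 234 and 250 UMIs in overloaded replicates 1 and 2. In CPM, which puts the libraries on a common total by TMM factors, the level was 72.8 ± 32.5 in sham and 557 ± 72.2 in overloaded MuSCs (SD, n = 2 libraries each). Both overloaded libraries were far above both sham libraries. The log2 fold change was 2.92 with a standard error of 0.25 (95% interval 2.39 to 3.44, edgeR adjusted p = 2.81e-07).

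Neb (ENSMUSG00000026950, chr2:52136647-52378474, minus strand) encodes nebulin, the giant thin filament protein, in 157 exons of its longest transcript. The counts were 10 and 4 UMIs in sham and 129 and 163 UMIs in overloaded libraries, or 30.8 ± 18.0 and 333 ± 3.77 CPM (SD, n = 2). Neb had the largest change of the 10 members, a log2 fold change of 3.40 with a standard error of 0.30 (95% interval 2.78 to 4.03, edgeR adjusted p = 3.20e-07). Its size rested partly on sham replicate 1, since the value was 4.17 without that library and 2.92 without sham replicate 2, and the call was kept in both. The number of Ttn UMIs per Neb UMI was 2.20 and 2.75 in sham libraries and 1.81 and 1.53 in overloaded libraries, both of which lay below both sham values.

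The sarcomeric alpha-actinins differed in level and in change. Actn3 (ENSMUSG00000006457, chr19:4861216-4877909, minus strand), the isoform of fast muscle fibers, was counted as 31 and 28 UMIs in sham and 96 and 103 UMIs in overloaded libraries, or 131 ± 5.73 and 229 ± 29.0 CPM (SD, n = 2). Both overloaded libraries lay above both sham libraries, and the log2 fold change of 0.80 with a standard error of 0.22 passed the test (edgeR adjusted p = 0.00691). Actn2 (ENSMUSG00000052374, chr13:12269426-12340760, minus strand), the isoform found in all skeletal fibers and in heart, was counted as 2 and 2 UMIs in sham and 13 and 18 UMIs in overloaded libraries. Each sham count lay below the 3 UMIs that a count of 0 still allows, whereas their sum of 4 lay just above. At 8.88 ± 0.251 and 35.1 ± 1.87 CPM, the log2 fold change of Actn2 was 1.95 with a standard error of 0.56 (95% interval 0.76 to 3.13, edgeR adjusted p = 0.0097). Of all members Actn2 rested on the fewest UMIs, and DESeq2 did not call it (adjusted p = 0.192). With loess offsets, which take out any trend of the fold changes with abundance, its log2 fold change was -0.19 (edgeR adjusted p = 0.882).

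Ldb3 (ENSMUSG00000021798, chr14:34526603-34588682, minus strand) encodes a PDZ-LIM protein, also known as Cypher or ZASP, that binds alpha-actinin at the Z-disc. It was counted as 9 and 1 UMIs in sham and 35 and 79 UMIs in overloaded libraries, or 21.9 ± 24.5 and 125 ± 48.8 CPM (SD, n = 2). The groups did not overlap, although both were widely spread. The log2 fold change was 2.51 with a standard error of 0.51 (edgeR adjusted p = 7.59e-04), and it was 4.72 without sham replicate 1 and 1.70 without sham replicate 2. DESeq2 did not call it (adjusted p = 0.133).

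Tcap (ENSMUSG00000007877, chr11:98383811-98384953, plus strand) encodes telethonin, which caps the titin ends at the Z-disc. It was counted as 12 and 3 UMIs in sham and 23 and 34 UMIs in overloaded libraries, or 32.9 ± 27.3 and 64.3 ± 6.40 CPM. Sham replicate 1, with 52.2 CPM, was close to overloaded replicate 1, with 59.8 CPM, whereas sham replicate 2 was far lower, with 13.6 CPM. Its log2 fold change of 0.95 with a standard error of 0.46 passed the threshold only just (edgeR adjusted p = 0.0992), and the unadjusted 95% interval of -0.0074 to 1.91 includes 0. The call was lost without sham replicate 2 (log2 fold change 0.31, edgeR adjusted p = 0.655) and without overloaded replicate 2 (0.84, 0.207), and without sham replicate 1 the value was 2.22. In all, 8 of 15 alternatives ended the Tcap call, among them DESeq2 (adjusted p = 0.365), DESeq2 size factors in edgeR (0.101), offsets for abundance (0.234) and counts thinned to the smallest library (0.109).

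Ckm (ENSMUSG00000030399, chr7:19404776-19422841, plus strand) encodes the muscle creatine kinase, which regenerates ATP and is partly anchored at the M-band. It was counted as 69 and 42 UMIs in sham and 171 and 204 UMIs in overloaded libraries, or 245 ± 77.8 and 429 ± 22.3 CPM (SD, n = 2). Both overloaded libraries were above both sham libraries, with a log2 fold change of 0.80 and a standard error of 0.20 (edgeR adjusted p = 0.00384). The call was lost without sham replicate 2 (log2 fold change 0.51, edgeR adjusted p = 0.138), and the value was 1.17 without sham replicate 1.

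Myom1 and Mybpc1 did not pass the test. Myom1 (ENSMUSG00000024049, chr17:71002633-71126856, plus strand) encodes myomesin 1, which crosslinks titin and myosin at the M-band, and was counted as 10 and 7 UMIs in sham and 9 and 23 UMIs in overloaded libraries. At 37.6 ± 8.36 and 35.0 ± 16.4 CPM the groups overlapped, and the log2 fold change was -0.057 with a 95% interval of -1.01 to 0.90 (edgeR adjusted p = 0.933). Mybpc1 (ENSMUSG00000020061, chr10:88518279-88605152, minus strand) encodes the slow form of myosin-binding protein C, and was counted as 18 and 15 UMIs in sham and 17 and 43 UMIs in overloaded libraries. Its levels of 73.2 ± 7.35 and 65.6 ± 30.3 CPM also overlapped, with a log2 fold change of -0.12 and a 95% interval of -0.90 to 0.66 (edgeR adjusted p = 0.823). In both genes overloaded replicate 2 had the highest level and overloaded replicate 1 the lowest of the 4 libraries. These wide intervals leave sizeable changes in either direction undetectable at this depth, and the sign of both estimates turned with the scaling, to 0.22 and 0.16 with library sizes alone.

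Des (ENSMUSG00000026208, chr1:75360329-75368579, plus strand) encodes desmin, the muscle intermediate filament, which proliferating myoblasts already express. It was the most abundant member in every library, with 208 and 209 UMIs in sham and 302 and 363 UMIs in overloaded libraries. Its level in CPM went the other way, 926 ± 29.3 CPM in sham against 760 ± 35.5 CPM in overloaded MuSCs (SD, n = 2), and the groups did not overlap in UMIs or in CPM. The log2 fold change of -0.29 with a standard error of 0.15 did not pass the test (95% interval -0.61 to 0.04, edgeR adjusted p = 0.144). It passed as lower without overloaded replicate 1 (-0.32, edgeR adjusted p = 0.0232) and as higher when UMIs per tube were compared without scaling (0.67, edgeR adjusted p = 0.00132). The ratio of Ttn to Des, which no scaling of whole libraries can change, rose in both overloaded libraries: there were 0.106 and 0.0526 Ttn UMIs per Des UMI in sham libraries and 0.775 and 0.689 in overloaded libraries.

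**Figure D2:**
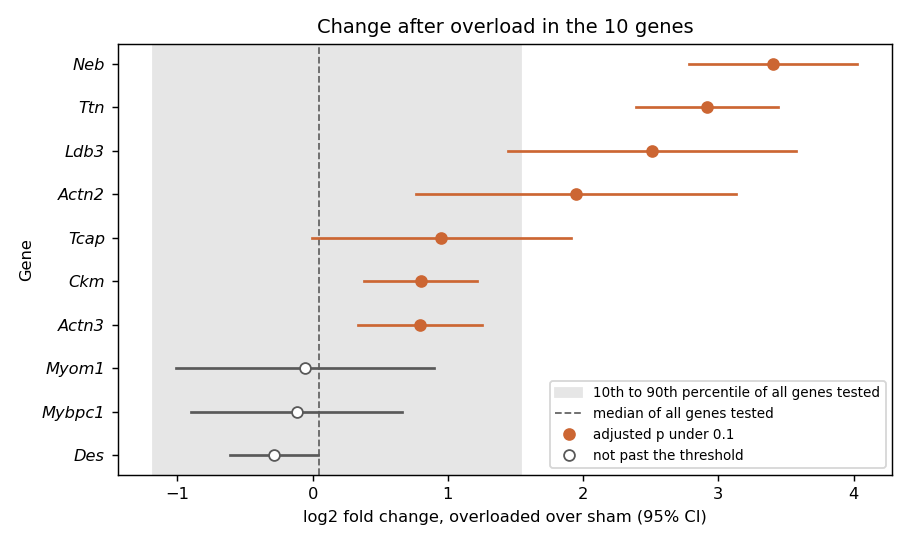
Log2 fold change of overloaded over sham MuSCs for each of the 10 genes, with its 95% interval from edgeR (2 libraries per group) and the median of all 7228 genes tested as a line. Neb, Ttn, Ldb3 and Actn2 lie furthest to the right, and the intervals of Tcap, Myom1, Mybpc1 and Des include 0.

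In sum over the 10 genes, sham libraries held 391 and 322 UMIs and overloaded libraries held 1029 and 1280 UMIs. This was 0.145% (exact Clopper-Pearson 95% interval 0.131 to 0.160) and 0.124% (0.110 to 0.138) of all UMIs in sham libraries, and 0.265% (0.249 to 0.282) and 0.265% (0.250 to 0.280) in overloaded libraries, where these intervals cover counting error only. The mean share was 1.97 times higher in overloaded MuSCs, with an exact two-sided permutation p of 0.333, the smallest that 2 against 2 libraries can give. Without Des the sums were 183 and 113 UMIs in sham and 727 and 917 UMIs in overloaded libraries, and the ratio of the mean shares was 3.39.

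The make-up of this sum differed between the groups. Des supplied 53.2% and 64.9% of the members' UMIs in sham libraries and 29.3% and 28.4% in overloaded libraries. Ttn supplied 5.63% and 3.42% in sham and 22.7% and 19.5% in overloaded libraries, and Neb 2.56% and 1.24% in sham and 12.5% and 12.7% in overloaded libraries. Ckm supplied 17.6% and 13.0% in sham and 16.6% and 15.9% in overloaded libraries, so that its groups overlapped. CEL-Seq2 gives a transcript 1 UMI per captured molecule whatever its length, so that levels were compared between genes without dividing by length. In sham MuSCs the order of mean levels was Des, Ckm, Actn3, Mybpc1, Ttn, Myom1, Tcap, Neb, Ldb3 and Actn2. Of neighboring pairs, Mybpc1 and Ttn, and each pair from Myom1 to Actn2, overlapped in their sham libraries. In overloaded MuSCs the order was Des, Ttn, Ckm, Neb, Actn3, Ldb3, Mybpc1, Tcap, Actn2 and Myom1. Of neighboring pairs, only Mybpc1 and Tcap, and Actn2 and Myom1, overlapped there. Genes further apart could overlap too, such as Ttn (95.8 and 49.8 CPM) and Tcap (52.2 and 13.6 CPM) in sham libraries. In overloaded libraries Mybpc1 (44.2 and 87.1 CPM) and Myom1 (23.4 and 46.6 CPM) did so. Ttn thus moved from the fifth to the second place and Neb from the eighth to the fourth.

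Related genes outside the 10 placed the members in their families. Among the 4 actinins, the non-muscle forms Actn1 and Actn4, which crosslink actin in adhesions and stress fibers, were the more abundant in sham MuSCs. Actn1 was counted as 58 and 62 UMIs in sham and 150 and 165 UMIs in overloaded libraries (log2 fold change 0.44, edgeR adjusted p = 0.0596). Actn4, with 100 and 90 UMIs in sham and 111 and 118 UMIs in overloaded libraries, fell by 0.68 on the log2 scale (edgeR adjusted p = 0.00441). With offsets for abundance the call of Actn4 was lost (-0.12, edgeR adjusted p = 0.601). The Actn1 call was lost without either sham library, without overloaded replicate 1 and with DESeq2, its log2 fold change being 0.34 to 0.55 when 1 library was left out. Actn3 made up 16.2% and 15.4% of the UMIs of the 4 actinins in sham and 25.9% and 25.5% in overloaded libraries, and Actn2 1.05% and 1.10% in sham and 3.51% and 4.46% in overloaded libraries. Of the sarcomeric pair, Actn3 remained the main form, with 93.9% and 93.3% of their UMIs in sham and 88.1% and 85.1% in overloaded libraries.

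Nebulin has a smaller relative, nebulette (Nebl), named here after its values were seen, which is the form of cardiac and non-muscle cells. Nebl was counted as 10 and 12 UMIs in sham libraries and as 0 and 1 UMIs in overloaded libraries, a ratio of 42.9 (exact 95% counting interval 6.93 to 1770) in favor of sham (edgeR adjusted p = 2.97e-05), which rests on a single overloaded UMI, in replicate 2. The fitted log2 fold change of Nebl was -6.78 to -4.33 with 1 library left out. Neb therefore made up 50.0% (exact 95% interval 27.2 to 72.8) and 25.0% (7.27 to 52.4) of the UMIs of this pair in sham libraries, and 100% (97.2 to 100) and 99.4% (96.7 to 100) in overloaded libraries. The shift was present in both libraries of each group and combined a rise of Neb with a fall of Nebl. Of the creatine kinases, the brain form Ckb was counted as 7 and 6 UMIs in sham and 54 and 67 UMIs in overloaded libraries, and it rose by 2.24 on the log2 scale (edgeR adjusted p = 6.94e-05). Ckm made up 90.8% (exact 95% interval 81.9 to 96.2) and 87.5% (74.8 to 95.3) of the UMIs of Ckm and Ckb in sham, and 76.0% (69.9 to 81.4) and 75.3% (69.7 to 80.3) in overloaded libraries. The mitochondrial forms Ckmt1 (0 and 7 UMIs in sham, 2 and 3 in overloaded libraries) and Ckmt2 (0 and 0, 1 and 2) had too few counts to be tested.

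**Figure D3:**
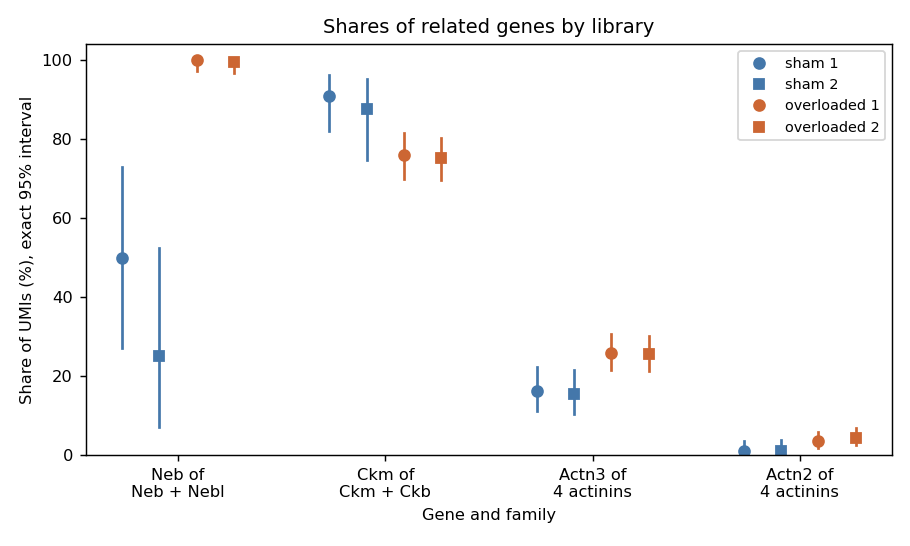
Share in percent of the UMIs of a gene family taken by Neb (of Neb and Nebl), Actn3 (of the 4 actinins), Actn2 (of the 4 actinins) and Ckm (of Ckm and Ckb) in each library, with exact 95% intervals for counting error. The share of Neb rises to nearly all of its pair in both overloaded libraries, and that of Ckm goes from 90.8% and 87.5% to 76.0% and 75.3%.

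Of 26 other Z-disc genes listed, 25 were in the table and 19 were tested, of which 10 were higher, 4 were lower and 5 did not pass, where 25.8% of all genes tested were higher and 26.3% were lower, with a median log2 fold change of 0.46, or 1.14 without sham replicate 1, 0.88 without overloaded replicate 2 and 1.68 over 25 genes with no filter. Several of the higher genes, such as Csrp3, Myot and Xirp1 (2 and 0 UMIs in sham), had enough counts only through the overloaded libraries. The number of higher genes therefore leans toward genes that rose and says little about the list. Ankrd1, a stretch-responsive protein that binds titin, was counted as 40 and 50 UMIs in sham and 195 and 244 UMIs in overloaded libraries and rose by 1.32 on the log2 scale (edgeR adjusted p = 3.29e-05). Csrp3, a muscle LIM protein of the Z-disc, had 0 UMIs in both sham libraries and 19 and 47 UMIs in overloaded libraries, and was at least 11.3-fold higher against a floor of 3 UMIs over the sham group. Myot, encoding the actinin-binding myotilin, had 0 and 1 UMIs in sham and 14 and 23 UMIs in overloaded libraries, a ratio of 19.0 (exact 95% counting interval 3.20 to 770) that rests on a single sham UMI, in replicate 2. The fitted log2 fold change of Myot was 3.12 to 6.97 with 1 library left out. Csrp3 and Myot were named after their values were seen, and both calls were lost with offsets for abundance (edgeR adjusted p = 0.117 and 0.822), where the fitted log2 fold change of Myot was 0.48 and that of Csrp3, no bound since sham is at 0, was 7.09.

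The 4 lower Z-disc genes were Bag3, Flnc, Cryab and Nebl. Bag3, a co-chaperone that clears damaged filamin, was counted as 161 and 174 UMIs in sham and 114 and 132 UMIs in overloaded libraries and fell by 1.40 on the log2 scale (edgeR adjusted p = 5.01e-06). Its client Flnc, the muscle filamin, was counted as 146 and 147 UMIs in sham and 88 and 95 UMIs in overloaded libraries and fell by 1.63 (edgeR adjusted p = 1.48e-06). The small heat shock protein Cryab, a desmin chaperone, was counted as 233 and 231 UMIs in sham and 251 and 312 UMIs in overloaded libraries, and fell by 0.68 in CPM on the log2 scale (edgeR adjusted p = 0.00180), although its UMIs per tube were higher. With offsets for abundance the call of Cryab was lost and its sign turned (0.26, edgeR adjusted p = 0.122). Bag3 and Flnc had fewer UMIs in each overloaded library than in each sham library even before scaling, in libraries with more UMIs in all.

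Of 13 other M-band and thick filament genes, 11 were in the table and only 4 had enough counts to be tested, of which Fbxo32, Trim63 and Smpx were higher and Obsl1 did not pass. Trim63 and Smpx had enough counts only through the overloaded libraries, and Fbxo32, with 2 UMIs in sham replicate 2, needed them too. This tally therefore says little about the list, and of all genes tested 25.8% were higher and 26.3% were lower. Obsl1, a relative of obscurin, was counted as 9 and 5 UMIs in sham and 11 and 21 UMIs in overloaded libraries (log2 fold change 0.22, edgeR adjusted p = 0.718). Fbxo32, the ubiquitin ligase atrogin-1, was counted as 11 and 2 UMIs in sham and 36 and 53 UMIs in overloaded libraries (log2 fold change 1.80, edgeR adjusted p = 0.00384), with values of 3.43 and 1.07 without sham replicates 1 and 2. Both of the other genes called were close to 0 in sham MuSCs. Trim63, the titin-binding ubiquitin ligase MuRF1, had 1 and 0 UMIs in sham and 14 and 29 UMIs in overloaded libraries, a ratio of 22.1 (exact 95% counting interval 3.75 to 891) that rests on a single sham UMI, in replicate 1. Smpx, a small protein of striated muscle, had 2 and 1 UMIs in sham and 29 and 64 UMIs in overloaded libraries, a ratio of 15.9 (5.28 to 78.5). With offsets for abundance the call of Trim63 was lost (log2 fold change 0.88, edgeR adjusted p = 0.64). Its log2 fold change was 4.24 with all libraries and 3.39 without sham replicate 2. Without sham replicate 1 the fitted value was 7.17, which is no bound since sham is then at 0.

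Among 19 sarcomere assembly factors, 12 were tested, with 7 higher, 3 lower and 2 that did not pass (25.8% of all genes tested were higher and 26.3% lower), and a median log2 fold change of 2.12, or 0.75 with offsets for abundance. Several of the higher genes, such as Smyd1 (1 and 1 UMIs in sham) and Fhod1 (0 and 2), had enough counts only through the overloaded libraries. The tally and the median therefore lean toward genes that rose and say little about the list. Hspb8, a small heat shock protein that works with Bag3, was counted as 7 and 14 UMIs in sham and 94 and 149 UMIs in overloaded libraries and rose by 2.55 on the log2 scale (edgeR adjusted p = 3.92e-06), or by 3.16 without sham replicate 2. Hspb1, a related chaperone, was counted as 306 and 299 UMIs in sham and 345 and 363 UMIs in overloaded libraries and fell by 0.72 (edgeR adjusted p = 0.00161), whereas with offsets for abundance it was called higher (0.29, edgeR adjusted p = 0.061). Speg, a kinase related to obscurin, was counted as 50 and 39 UMIs in sham and 37 and 40 UMIs in overloaded libraries and fell by 1.16 (edgeR adjusted p = 8.73e-04). Cfl2, the muscle cofilin that trims thin filaments, was counted as 74 and 66 UMIs in sham and 147 and 164 UMIs in overloaded libraries (log2 fold change 0.20, edgeR adjusted p = 0.386), a difference that did not pass the test but was called higher with offsets for abundance (0.76) and with library sizes alone (0.47).

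Des belongs to a set of 9 intermediate filament and linker genes, of which 7 were tested, with 3 higher, 1 lower and 3 that did not pass, which is near the 52.1% of all genes that passed in either direction. Vim, the intermediate filament of proliferating cells, was counted as 182 and 185 UMIs in sham and 360 and 374 UMIs in overloaded libraries (log2 fold change 0.051, edgeR adjusted p = 0.825), and Plec, a linker of desmin to the Z-disc, as 79 and 63 UMIs in sham and 145 and 166 UMIs in overloaded libraries (0.17, 0.449). Neither passed the test, but both were called higher with offsets for abundance (0.99 and 0.74) and with library sizes alone (0.33 and 0.45). Lmna, encoding the A-type lamins, was counted as 240 and 268 UMIs in sham and 276 and 291 UMIs in overloaded libraries and fell by 0.79 (edgeR adjusted p = 9.66e-04). With offsets for abundance the call of Lmna was lost and its sign turned (0.16, edgeR adjusted p = 0.365). Nes, encoding nestin, a partner of desmin in immature muscle, stood apart from these abundant genes, with 10 and 19 UMIs in sham and 138 and 144 UMIs in overloaded libraries. It was named after its values were seen, and its log2 fold change was 2.32 (edgeR adjusted p = 4.24e-06), or 2.88 without sham replicate 2.

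Of the transcription factors that act on these genes in differentiating muscle, Myog and Mef2c had the largest changes among the 7 tested. Myog, encoding myogenin, was counted as 52 and 49 UMIs in sham and 246 and 282 UMIs in overloaded libraries and rose by 1.43 on the log2 scale (edgeR adjusted p = 9.96e-06). Mef2c was counted as 9 and 2 UMIs in sham and 57 and 63 UMIs in overloaded libraries, with a log2 fold change of 2.47 (edgeR adjusted p = 1.54e-04), or 3.87 and 1.80 without sham replicates 1 and 2. Mef2a passed the test with a small rise of 0.50 (edgeR adjusted p = 0.0404) that was lost without either sham library and with DESeq2. Myod1, with 83 and 87 UMIs in sham and 176 and 229 UMIs in overloaded libraries, had a log2 fold change of 0.29 (edgeR adjusted p = 0.171), and neither Myf5 (0.098, 0.675) nor Mef2d (0.21, 0.508) passed. Myod1 and Myf5 were called higher with offsets for abundance (0.97 and 1.08) and with library sizes alone (0.57 and 0.37), and Myod1 also with upper-quartile factors (0.38), so that their place relative to the threshold depended on the scaling. Pax7, the marker of MuSCs, was counted as 118 and 107 UMIs in sham and 108 and 137 UMIs in overloaded libraries and fell by 0.84 in CPM on the log2 scale (edgeR adjusted p = 6.35e-04). With offsets for abundance the call of Pax7 was lost (-0.22, edgeR adjusted p = 0.302). Myf6, a late myogenic factor, had 1 and 0 UMIs in sham and 11 and 24 UMIs in overloaded libraries and too few counts to be tested.

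Marker genes of the cells that the sort could hold were read beside the members. MuSC markers were present in all libraries, with all 9 listed genes tested and a summed level of 5750 and 4951 CPM in sham and 3931 and 3404 CPM in overloaded libraries, Sdc4 being the most abundant. Of these, 6 were lower, 2 were higher and 1 did not pass, where 26.3% of all genes tested were lower and 25.8% were higher. Of 8 markers of differentiating myocytes 7 were tested and all 7 were higher, against 25.8% of all genes tested. The sum of the 8 was 448 and 335 CPM in sham and 2644 and 2835 CPM in overloaded libraries, with Actc1 the most abundant. Mymx, Myh8 and Tnnt2 were at 0 in both sham libraries. Mymx, Tnnt2, Myh3 (0 and 4 UMIs in sham) and Myl4 (2 and 1) could be tested only through their overloaded counts. Of 12 markers of adult myofibers with a row of counts, 8 were tested, some of them such as Casq1 (1 and 4 UMIs in sham) only through their overloaded counts, and all 8 were higher, against 25.8% of all genes tested, and the sum of the 12 was 1589 and 874 CPM in sham and 3133 and 3074 CPM in overloaded libraries. Their most abundant gene was Acta1, skeletal actin, and Myh1 and Myh2, adult fast myosins, were at 0 in both sham libraries and had 2 UMIs or fewer in each overloaded library. Myh4, another adult fast myosin of the list, named after its values were seen, had 10 and 5 UMIs in sham and 145 and 79 UMIs in overloaded libraries, and its log2 fold change was 2.96 (edgeR adjusted p = 8.81e-05), or 2.26 without overloaded replicate 1. Acta1 and other genes of this list are also expressed by differentiating myocytes. Ckm kept a near constant ratio to Acta1, with 0.575 and 0.636 Ckm UMIs per Acta1 UMI in sham and 0.572 and 0.596 in overloaded libraries.

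The sham libraries also differed from each other in the myofiber markers. Sham replicate 1 had more CPM than sham replicate 2 for 8 of the 10 members and for 7 of the 12 myofiber markers, and its summed myofiber level was 1589 against 874 CPM. Markers of other cell types were also counted. Mural and smooth muscle markers summed to 775 and 693 CPM in sham and 1191 and 1365 CPM in overloaded libraries, mainly through Acta2, with Myh11 at 0 in sham. Of the 3 mural genes tested 2 were higher and 1 was lower, where 25.8% of all genes tested were higher and 26.3% were lower. Leukocyte markers had 2 and 5 UMIs in sham and 60 and 137 UMIs in overloaded libraries, with Lyz2 the most abundant and 6 of the 8 genes (Lyz2, C1qa, C1qb, Cd74, Tyrobp and Adgre1) at 0 in both sham libraries. Only Lyz2 and Cd74 could be tested, through their overloaded counts alone. Fibroblast markers summed to 3517 and 3357 CPM in sham and 2962 and 2541 CPM in overloaded libraries, mainly through Col3a1 and with Pdgfra at 0 in sham. Of the 4 fibroblast genes tested 1 was higher, 2 were lower and 1 did not pass, against 25.8% higher and 26.3% lower among all genes tested. The higher gene was Ly6a (Sca-1), a surface marker of fibro-adipogenic progenitors named after its values were seen, with 1 and 0 UMIs in sham and 22 and 41 UMIs in overloaded libraries, a ratio of 32.3 (exact 95% counting interval 5.59 to 1297) that rests on a single sham UMI. Its fitted log2 fold change was 2.08 to 7.71 over 15 alternatives, 1 of which ended the call. Endothelial markers had 8 and 4 UMIs in sham and 32 and 28 UMIs in overloaded libraries, with Cdh5 the most abundant, Cldn5 at 0 in sham and no gene with enough counts to be tested. The marker sums of differentiating myocytes, adult myofibers, mural cells, leukocytes and endothelial cells were higher in both overloaded libraries, as was that of the members, and their part in the change of the members was not tested.

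**Figure D4:**
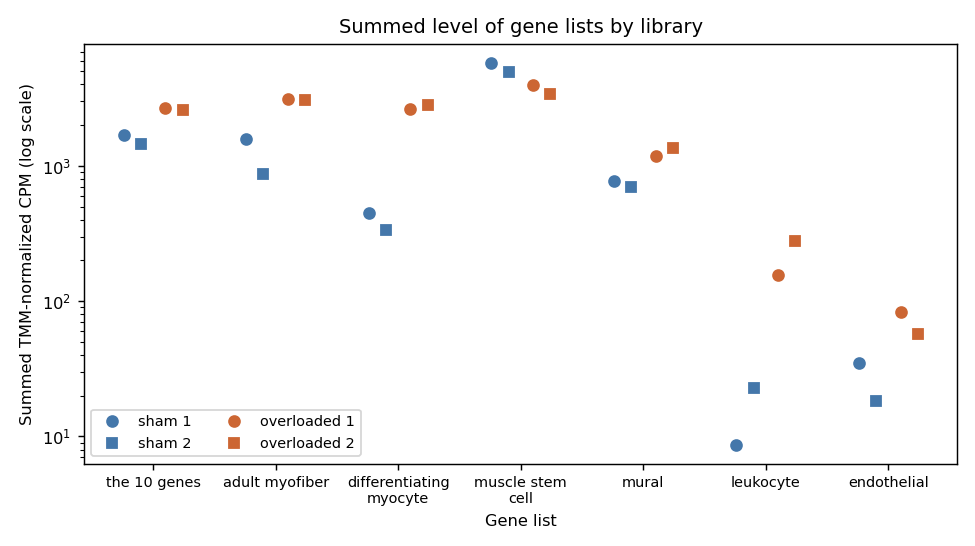
Summed level in CPM (log scale) of the 10 members and of each marker list except that of fibroblasts in the 4 libraries. The sums of differentiating myocyte, adult myofiber, mural, leukocyte and endothelial markers are higher in both overloaded libraries, as is that of the members. The sum of MuSC markers is lower there.

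The scaling of the libraries set the level from which a change was read. Overloaded libraries held more UMIs per tube, and without any scaling all 10 members had a positive log2 fold change, 8 of them past the threshold (Des in addition), while 93.1% of all calls were then higher against 49.6% with TMM, and the median of all genes was 1.01. With library sizes alone 66.6% of all calls were higher and that median was 0.33. Scalings of whole libraries shift all genes by about the same amount and so keep the order of the members, whereas without sham replicate 1 Ldb3 (4.72) was above Neb (4.17) and Ttn (3.47). With offsets for abundance 6 members were called higher, Ttn (3.18), Neb (3.35), Ldb3 (2.28), Ckm (1.34), Actn3 (0.99) and Des (0.66). The falls of Actn4, Cryab, Hspb1, Lmna and Pax7 relative to the library turned to positive values for UMIs per tube, of 0.27, 0.28, 0.23, 0.16 and 0.12. Ttn, Neb and Actn3 were called higher in each of the alternatives tried.

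**Figure D5:**
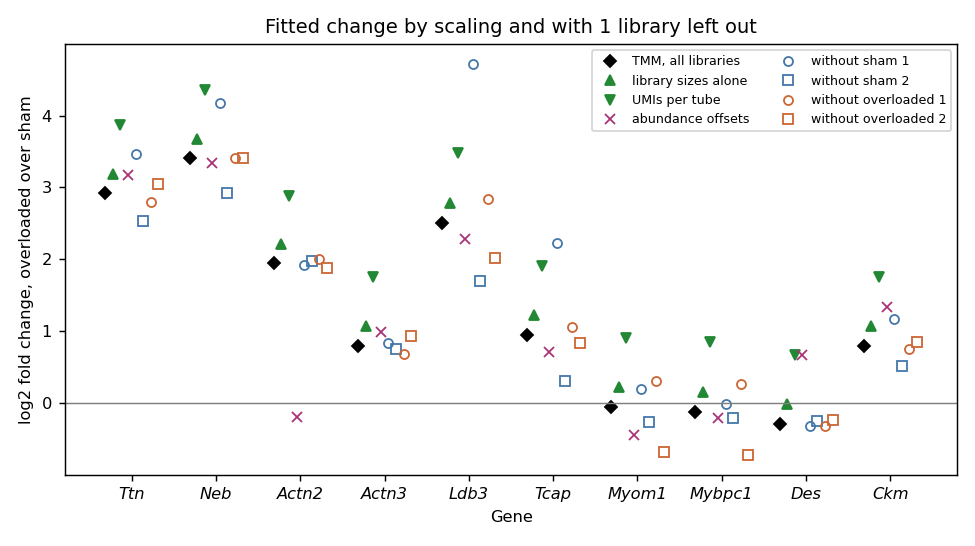
Log2 fold change of each of the 10 genes under TMM scaling and under other settings, 1 point per setting. The other settings are library sizes alone, UMIs per tube, offsets for abundance and each library left out in turn. Ttn, Neb, Ldb3, Actn3, Ckm and Tcap stay above 0 throughout, whereas Actn2, Myom1, Mybpc1 and Des fall on both sides of 0.

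How the annotation overlaps these genes limits their identity in part. On GRCm38 with GENCODE M21, annotated genes on the other strand overlap Des, Neb, Ttn, Ckm, Mybpc1 and Myom1, and none overlaps Tcap, Actn2, Ldb3 or Actn3. On the same strand, the pseudogene Gm13521 overlaps Neb and the noncoding RNA gene Gm26561 overlaps Myom1. Neither has a row of counts, and strand could not separate their reads from those of the members. Whether the counting used strand is not given in the sources used here, so that reads from a member and from an overlapping gene on the other strand cannot be told apart. The only such partner counted in the table was Myl12a, a regulatory myosin light chain gene that overlaps Myom1, with 216 and 207 UMIs in sham and 286 and 337 UMIs in overloaded libraries.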

How the data were processed

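Per the labels and the study's methods, the authors extracted UMIs with UMI-tools (version 1.0.0), aligned reads to GRCm38 with HISAT2 (version 2.1.0), assigned them with featureCounts (version 1.6.4) and deposited UMI counts per gene without normalization. The annotation release and strand setting are not given in the sources used here. Depth was 260488 to 483528 UMIs per library, and 3 UMIs corresponded to 6.08 to 13.6 CPM.

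Counts were scaled by TMM, filtered with filterByExpr (minimum count 10, minimum total 15, 7228 genes kept) and tested with glmQLFTest of edgeR (version 4.0.16, R version 4.3.3, limma version 3.58.1), with Benjamini-Hochberg adjustment over all genes kept, a threshold of 0.1 and a prior count of 0.125. A gene high in 1 group can pass this filter through that group alone, so that counts over the tested genes of a list lean toward genes that differ. The common biological coefficient of variation was 9.50%. Replicates of a group differed by more than sampling noise (chi-square per degree of freedom 1.31 for sham and 1.50 for overloaded libraries). Alternatives were DESeq2 (version 1.42.0), other scalings and filters, counts thinned to 260488 UMIs, each library left out in turn, a block for the replicate number and a threshold of 0.05. A lone library was taken to vary like the other group. Shares, intervals and plots used Python 3.11.15 with scipy 1.17.1, pandas 2.3.3, numpy 2.4.6 and matplotlib 3.10.9. All 19353 gene identifiers matched GENCODE M21, 19331 with the same name.

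The members and gene lists were chosen with earlier results of these data known. Named were all members, all actinins, creatine kinases and myogenic regulators, the 4 most abundant genes of each other list, and of each marker list the most abundant gene and those at 0 in both sham libraries, with Nebl, Nes, Csrp3, Myot, Myh4 and Ly6a added after their values were seen. Myoz3, Mybpc3, Mybph and Mb were listed but not analysed here.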

Additional observations from a re-analysis of the deposited data

How the results depend on the processing

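With 2 libraries per group, depths of 260488 to 483528 UMIs and fewer than 20 UMIs in each sham library for Neb, Actn2, Ldb3, Tcap, Myom1 and Mybpc1, small changes of these genes were not detectable. Over all alternatives, 250 values kept their place, meaning numbers of calls within 1.5 times those reported and the same direction for the sum of the members (a ratio of 1.83 to 3.39), and 26 numbers of calls moved more. Of the values for single genes 536 kept their direction and side of the threshold, 28 lost their call, 20 gained one and 27 turned their sign. The cause of the changes below was not tested.

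Over all genes, 1868 were higher and 1898 lower, against 4481 and 331 for UMIs per tube, 967 and 1215 with DESeq2, and 1464 to 1696 and 1570 to 1739 with 1 library left out. Of all calls 49.6% were higher with TMM, 66.6% with library sizes alone, 93.1% for UMIs per tube, 55.6% with upper-quartile factors and 57.6% with no filter, and the median log2 fold change of all genes was 0.051, 0.33, 1.01, 0.15 and 0.30 in the same order. DESeq2 called 4 members higher in place of 7 (5 to 7 with 1 library left out). Des was lower, as the 1 member so called, with the group-wise filter (10 or more counts throughout 1 group, 7572 genes kept) (edgeR adjusted p = 0.0643) and with 1 library left out (0 to 1 member). In the M-band list 5 genes were higher with no filter. The number of lower assembly factors was 0 per tube. Of the actinins 1 was higher with DESeq2 and 1 with thinned counts, and 0 were lower per tube and with offsets for abundance. Leaving out 1 library gave 1 to 2 creatine kinases higher. Of the intermediate filament list 5 were higher with library sizes alone, 6 per tube and 6 with offsets, and lower were 0 per tube, 0 with offsets, 2 with the group-wise filter and 1 to 2 with 1 library left out. Of the myogenic regulators 5 were higher with library sizes alone, 6 per tube and 5 with offsets (2 to 3 with 1 library left out), and 0 were lower per tube and with offsets.

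The sign of some log2 fold changes turned. Per tube, Myom1 was 0.90, Mybpc1 0.86, Des 0.67, Cryab 0.28, Hspb1 0.23, Actn4 0.27, Lmna 0.16 and Pax7 0.12. With offsets, Actn2 was -0.19, Des 0.66, Cryab 0.26, Obsl1 -0.29, Hspb1 0.29 and Lmna 0.16. Myom1 was also 0.22 and Mybpc1 0.16 with library sizes alone, and Myom1 was 0.036 with upper-quartile factors, 0.017 with no filter and 0.089 with thinned counts. Vim was -0.019 with the group-wise filter. With 1 library left out, Myom1 ranged from -0.68 to 0.31, Mybpc1 from -0.72 to 0.26, Obsl1 from -0.12 to 0.68, Vim from -0.092 to 0.20 and Myf5 from -0.12 to 0.36. Actn2 could not be tested with thinned counts, nor Myom1 with the group-wise filter.

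By their labels the libraries share only a replicate number, and same-numbered libraries did not deviate together (correlation of deviations over genes -0.034). The study describes contralateral sham muscles in other experiments. Whether same-numbered libraries came from the same mouse is not given in the sources used here. With the replicate number as a block 1806 genes were higher and 1864 lower, and the same 7 members were called higher.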
